A study of Rattus norvegicus with 241 samples.

Results

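The genes described here are 6 regulators of luminal progenitor (LP) and alveolar cells of the rat mammary gland: Kit (KIT), Elf5 (ELF5), Ehf (EHF), Stat5a (STAT5A), Stat5b (STAT5B) and Sox9 (SOX9). They were chosen by name, with symbols matched ignoring case, and all 6 of them were found among the 21707 gene symbols of the series, in the bulk tables as well as in the single-cell tables. The study asked what a short course of a TGFβ receptor inhibitor (TGFBRi, LY2157299) does to the mammary gland and to later tumor formation. It profiled sorted basal, luminal and CD45+ fractions of gland, and EPCAM+ and CD45+ cells of tumors, by bulk RNA-seq (202 samples in 59 groups) and single cells of sorted epithelium or of whole gland (39 samples in 10 groups).

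Kit is a receptor tyrosine kinase whose ligand is Kitlg (stem cell factor), and it marks luminal progenitors in the mammary gland as well as mast cells outside the epithelium. Elf5 and Ehf are transcription factors of the ETS family, and Elf5 is required for the alveolar, milk-producing fate. Stat5a and Stat5b are transcription factors that act downstream of the prolactin and growth hormone receptors, and Stat5a in particular is needed for alveolar development and milk protein genes. Sox9 is a transcription factor of luminal progenitor and stem-like cells that is also expressed in basal cells.

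All rats were female, all but the parous adult rats were virgin, and the inhibitor was given at 75 mg/kg. Young ACI rats (3 per group) received it for 10 days, starting at 35 days of age, and were taken at day 0 (D0, the end of dosing), day 7 or day 14. Young SD rats (4 per group) began the same 10 days of dosing when 24 days old and were taken at D0. Adult ACI rats, dosed for 10 days and taken at D0, were virgin or parous, with 4 rats per group in the basal and luminal fractions and 2 to 4 in the CD45+ fraction. In the NMU experiment, SD rats began 10 days of dosing when 21 days old, received the carcinogen N-nitroso-N-methylurea (NMU) at 50 mg/kg afterwards, were taken at day 87 after it and fell into 3 groups of 3 rats: tumor-bearing vehicle rats, and tumor-bearing or tumor-free TGFBRi-treated rats. In the estradiol (E2) experiment, virgin ACI rats were dosed from 38 days of age for 21 days and then carried an empty implant or one with 37 mg E2. Vehicle groups held 4 rats each, and treated groups 3 without E2, 4 tumor-free with E2 and 2 tumor-bearing with E2. Among the rats profiled there, every vehicle rat with E2 bore tumors and no rat without E2 did, so E2 and tumor state cannot be told apart in vehicle rats. The single-cell sets held sorted basal and luminal cells of ACI rats (3 vehicle, 3 TGFBRi-treated), the same sorts of SD rats (3 and 6) and whole glands of SD rats (3 and 6). These rats were virgin, began their 10 days of dosing at an age of 35 days (ACI) or 24 days (SD) and were taken at D0. The basal and luminal gates were CD24+CD29high and CD24+CD29low among CD31-CD45- cells. Labels give no genotype beyond strain, and SD is an outbred stock.

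Bulk values below are CPM, a gene's reads scaled to the total of its library, recovered from the deposited normalized counts, with 4194912 to 52314784 reads per file. Single-cell values are unique molecular identifiers (UMIs) of a class of cells, summed per rat and scaled to CPM likewise. In the vehicle lineage comparisons, 10 or 11 of 11 basal genes tested were lower in the luminal fraction and 10 to 12 milk genes were higher. The libraries were uneven in several respects. In 6 luminal libraries over 8% of reads fell in ribosomal protein genes, the basal library of adult virgin vehicle rat 1 carried Krt18 at 1159 CPM against 158 to 241 in the other 3, and libraries of the NMU CD45+ fraction carried basal keratins. The labels of 1 young ACI rat disagreed on its treatment, and it was kept as vehicle, as its title states. The single-cell sets held 16762, 39766 and 103524 cells, with up to 3, 7 and 284 barcodes shared by a pair of libraries. More barcodes were shared between whole-gland libraries, but those libraries held 7900 to 16424 cells each. Sorted libraries held 877 to 2253 (ACI) and 563 to 3853 (SD), and the overlap expected at these sizes was not computed.

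Stat5a and Stat5b are neighbouring, closely related genes on rat chromosome 10, and the results below turn on them repeatedly, so the 300 bases around each start site are shown (RefSeq, GRCr8, 250 bases before the start and 50 after it). Stat5a lies on the plus strand with its window at chr10:86285609-86285908, Stat5b on the minus strand with its window at chr10:86275903-86276202, and 9406 bases separate the windows. Capitals mark the ETS core GGAA on either strand (printed as GGAA or TTCC), the core that factors such as Elf5 and Ehf recognise.
Stat5a: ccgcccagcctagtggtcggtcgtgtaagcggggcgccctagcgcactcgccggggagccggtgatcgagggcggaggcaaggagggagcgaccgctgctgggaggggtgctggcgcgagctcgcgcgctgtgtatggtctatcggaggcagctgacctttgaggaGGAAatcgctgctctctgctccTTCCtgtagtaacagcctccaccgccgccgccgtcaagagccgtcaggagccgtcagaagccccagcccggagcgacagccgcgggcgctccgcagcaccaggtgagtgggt
Stat5b: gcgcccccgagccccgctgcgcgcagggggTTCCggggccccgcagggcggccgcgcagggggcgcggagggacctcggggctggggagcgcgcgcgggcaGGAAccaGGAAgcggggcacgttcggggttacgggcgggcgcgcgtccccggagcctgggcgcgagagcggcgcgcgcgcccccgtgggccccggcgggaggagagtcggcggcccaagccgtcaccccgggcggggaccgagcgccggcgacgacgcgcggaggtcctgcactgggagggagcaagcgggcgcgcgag
The Stat5a window held 2 such cores and the Stat5b window 3, near the median of 3 over 33469 rat promoters of the same length, of which 95.8% held at least 1. The STAT5 motif TTCNNNGAA, searched on both strands, matched neither window and was found in 8.87% of all promoters. Of the 6 genes, 3 (Kit, Stat5a, Stat5b) had an entry in the table. The paralogs are near identical in part of their coding sequence. Reads from shared stretches could have been lost or placed on the wrong gene, and the separate values of Stat5a and Stat5b are uncertain to that extent.

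Kit and both ETS factors were luminal genes in vehicle rats. In young ACI rats at D0, Kit was at 4.56, 2.08 and 5.09 CPM in the basal fraction, at 277, 220 and 185 in the luminal fraction and at 19.2, 12.8 and 24.8 in CD45+ cells. Every luminal library stood above every basal and CD45+ library, and the luminal minus basal difference was 5.97 ± 1.36 on the log2 scale (SE, limma, adjusted p = 1.50e-03). In young SD rats the luminal values of 24.0, 88.2, 9.43 and 144 CPM overlapped the basal values of 11.4, 6.42, 14.6 and 13.5. The difference there was 2.46 ± 0.70 (limma, adjusted p = 6.86e-03).

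The Kit contrast was also clear in adult ACI rats. Virgin rats had 145, 202, 163 and 242 CPM in the luminal fraction and 74.8, 4.48, 13.6 and 14.5 in the basal fraction, the highest being the library that carried luminal keratin (difference 3.41 ± 0.59, limma, adjusted p = 3.21e-05). Parous rats had 161, 177, 150 and 121 against 4.70, 3.81, 1.74 and 0.536 (5.53 ± 0.59). In vehicle rats of the NMU experiment the Kit values overlapped, with 6.04, 6.21 and 32.6 CPM in luminal and 9.33, 9.18 and 20.0 in basal cells (0.54, limma, adjusted p = 0.822). In the libraries at 6.04 and 6.21, 20.6 and 12.99% of reads fell in ribosomal protein genes, as did 8.45% in the young SD library at 9.43 CPM, against 4.62% in the third NMU library, and the part of this in the overlaps was not tested.

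Elf5 separated the fractions in every vehicle set. It was at 36.9, 15.9 and 48.6 CPM in luminal cells of young ACI rats against 1.43, 0.213 and 0.969 in basal cells (5.39 ± 0.73, limma, adjusted p = 1.73e-06), and at 36.9, 35.1, 47.1 and 48.3 against 1.66, 0.667, 2.24 and 1.13 in young SD rats (5.46 ± 0.39). The NMU set gave 28.8, 17.8 and 14.7 against 1.79, 2.13 and 3.95 CPM (3.65 ± 0.49). No luminal library fell into the basal range in any of the 5 sets, and the adult differences were 3.46 ± 0.38 in virgin and 4.4 ± 0.38 in parous rats. Ehf behaved alike, with differences of 5.66 ± 0.41 in young ACI, 3.38 ± 0.36 in young SD, 3.72 ± 0.43 in NMU, 3.72 ± 0.67 in virgin and 5.67 ± 0.67 in parous rats (limma, all passed). Luminal Ehf was at 484, 370 and 421 CPM in young ACI rats against 12.2, 4.47 and 11.6 in basal cells.

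The STAT5 genes were less lineage bound. Stat5a was at 89.2, 75.4 and 74.04 CPM in the luminal and at 19.8, 15.9 and 31.4 in the basal fraction of young ACI rats, without overlap (1.93 ± 0.52, limma, adjusted p = 6.90e-03). Young SD rats had a difference of 1.72 ± 0.26, with luminal values of 67.9, 151, 81.8 and 152 above all basal values (38.1, 59.6, 51.8 and 43.7). Stat5b was at 125, 134 and 106.9 against 43.5, 40.1 and 52.3 CPM in young ACI rats (1.48 ± 0.46, limma, adjusted p = 0.0192, lost without any 1 of 4 libraries). Its highest values in young SD rats were in CD45+ cells, at 231, 146, 179 and 255 CPM, against 70.5, 123, 86.7 and 111 in luminal cells. In NMU vehicle rats the means of log2(CPM + 1) were lower in luminal than in basal cells. They were 4.26 against 4.69 for Stat5a and 4.56 against 4.79 for Stat5b. In luminal libraries of rats 1 and 2 of that group, 20.6 and 12.99% of reads fell in ribosomal protein genes, against 4.62% in rat 3. The part of this in the lower means was not tested.

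In adult rats only some of these STAT5 contrasts passed. Stat5a was higher in the luminal fraction of parous rats (1.23 ± 0.35, limma, adjusted p = 5.64e-03), where its values of 77.03, 92, 26.8 and 47.4 CPM overlapped the basal 30.0, 18.1, 22.7 and 22.3 at the lowest luminal rat. It did not pass in virgin rats (0.58, adjusted p = 0.209) except under TMM scaling (0.86, limma, adjusted p = 0.0358) and with DESeq2 (0.81, adjusted p = 0.0482), and the Stat5b differences of 0.21 and 0.01 did not pass either. Sox9 was high in both epithelial fractions and low in CD45+ cells of young ACI rats, at 653, 610 and 544 CPM in basal, 938, 928 and 836 in luminal and 68.7, 24.5 and 33.6 in CD45+ cells. The luminal and basal values did not overlap there, yet the difference of 0.63 ± 0.44 did not pass (adjusted p = 0.384), and none of the other 4 bulk sets gave a Sox9 lineage call in the fit over all groups. In adult rats Sox9 ranged from 914 to 1463 CPM in virgin and 1235 to 1667 in parous luminal cells, inside or beside the basal ranges.

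In total 12 of 18 lineage tests of the 6 genes passed in the young and NMU sets and 7 of 12 in the adult sets, against backgrounds of 20.5% of all genes in young ACI, 50.1% in young SD, 21.9% in NMU, 36.5% in virgin and 42.2% in parous rats. In sorted cells a lower level can reflect fewer cells of a type or less RNA per cell, and bulk values cannot tell these apart. Over all 59 bulk groups, group medians of Kit ran from 6.21 to 237 CPM in luminal and from 1.19 to 14.0 in basal fractions. Those of Elf5 ran from 7.47 to 50.8 and from 0.28 to 4.78, so the luminal and basal groups did not overlap for Elf5 and overlapped for Kit. Neighbouring groups in the order of levels overlapped at 55 to 58 of 58 steps for each gene.

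**Figure D1:**
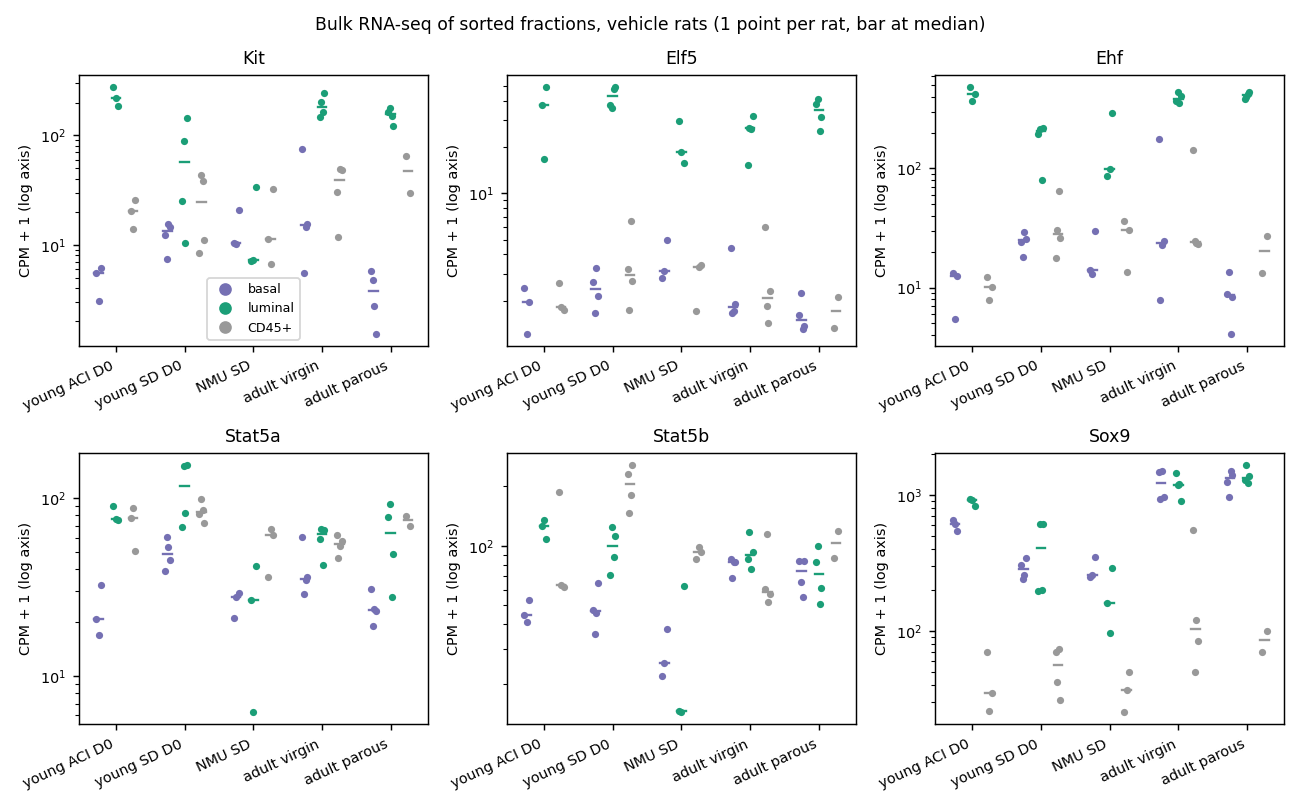
CPM + 1 on a log axis of the 6 genes in basal, luminal and CD45+ libraries of vehicle rats in 5 sets, 1 point per rat with a bar at the median. Luminal points of Elf5 and Ehf stand above basal points in each set, Kit points overlap in young SD and NMU rats, and Sox9 is high in both epithelial fractions.

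Single cells placed the same genes within the luminal compartment. In the luminal sort of vehicle ACI rats, LP-like cells had 246, 219 and 261 CPM of Kit and mature luminal (ML)-like cells 8.99, 1.84 and 4.17, and the basal sort had at most 1.26. Elf5 split likewise, at 219, 195 and 208 against 16.2, 1.84 and 8.34. The LP-like and ML-like values did not overlap for either gene. Ehf was graded, at 664, 725 and 633 in LP-like and 150, 132 and 133 in ML-like cells, whereas Sox9 was at 326, 449 and 273 against 302, 302 and 287 and overlapped. Clusters had been made without the 6 genes, but they rest on the same cells, so these class values are given as a description.

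Between sorts, all 6 genes were higher in the luminal than the basal sort in vehicle ACI and in vehicle SD rats (edgeR, adjusted p threshold of 0.1, backgrounds of 65.2% and 41.6% of all genes). The ACI differences were 8.60 for Kit, 7.25 for Elf5, 8.17 for Ehf, 2.13 for Stat5a, 0.80 for Stat5b and 0.88 for Sox9 on the log2 scale. In SD rats, Sox9 passed narrowly (0.87, edgeR, adjusted p = 0.0859, lost with DESeq2, with library totals and without any 1 of 4 libraries), and Stat5a and Stat5b differed by 2.17 and 1.72. Kit had no UMI in any of the 3 SD vehicle basal libraries, so its fitted difference is no measure of the fold. In the bulk fractions of young rats the Sox9 difference had the same direction and did not pass over all groups, but passed when only the groups compared were fitted (limma, 0.63 in ACI, adjusted p = 0.00306, and 0.85 in SD, adjusted p = 0.0373) and with the share of ribosomal protein reads as a covariate (1.03 and 2.10). In young SD rats it also passed with DESeq2 (0.92, adjusted p = 0.0458) and without libraries over 8% ribosomal protein reads (1.02, adjusted p = 0.0205).

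In the whole gland, where all cell types were kept, the members were less restricted. Median Kit over vehicle rats was highest in LP-like cells at 107.7 CPM (51.3 to 112), then endothelial-like cells at 81.6, T or NK-like cells at 53.6, mural-like cells at 38.0 (a class with 1 cluster, of 1415 cells, whose leading genes include the endothelial Gpihbp1 and Plvap) and macrophage or dendritic-like cells at 24.2, and ranges of neighbours overlapped. Elf5 fell from 127 in LP-like to 44.9 in ML-like and 3.38 in B-like cells, with no overlap between them. The ML-like level came from 1 of the 2 clusters of that class: cluster 0, with 33.5% of the vehicle cells at a median of 17466 UMIs and 7 of 10 LP markers over, had pooled Elf5 at 83.5, Ehf at 238 and Kit at 53.7, and cluster 27, at 6609 UMIs, had 1.35, 82.6 and 1.72. Whether cluster 0 holds mixed cells was not tested. Ehf fell from 366 to 156 in the same luminal classes and to 47.4 in macrophage or dendritic-like cells, also without overlap. These whole-gland orders put Elf5 and Ehf in luminal cells, with Kit spread over further classes.

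Stat5a and Stat5b were highest outside the epithelium of the whole gland. Stat5b was at 79.8 in T or NK-like, 24.0 in endothelial-like, 16.0 in ML-like, 12.2 in LP-like and 3.67 in basal-like cells (vehicle medians), and Stat5a at 43.8 in T or NK-like and 16.1 in LP-like cells. Sox9 was at 317 in LP-like and 253 in ML-like cells, which overlapped, at 79.6 in basal-like and at 25.3 in fibroblast-like cells.

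After TGFBRi treatment, Kit in LP-like cells fell in both sorted preparations and was higher in the whole gland. In sorted ACI cells, vehicle rats had 246, 219 and 261 CPM and TGFBRi-treated rats 129, 137 and 129. All treated rats were below all vehicle rats, as was so of 41.7% of all genes in CPM of these cells. The fitted difference was -0.55 ± 0.10 (edgeR, adjusted p = 1.34e-03, background 30.8% of all genes). In sorted SD cells, vehicle rats had 374, 495 and 332, and the 6 treated rats a lowest of 44.2, a median of 95.8 and a highest of 177. Treated rats were again all below vehicle, as for 24.2% of all genes there (-1.56 ± 0.37, edgeR, adjusted p = 0.0335, background 28.6%), although the call was lost without any 1 of the 3 vehicle rats. In whole glands, vehicle rats had 112, 51.3 and 107.7 and treated rats 122, 185 and 298 (lowest, median, highest). All treated rats were above vehicle, as for 14.0% of all genes there (+1.03 ± 0.36, edgeR, adjusted p = 0.0687, background 28.6%). That call was lost at a coarser clustering and without any 1 of 5 libraries (3 vehicle, 2 treated). Over all cells of the SD luminal sort, Kit was also lower (-1.69, edgeR, adjusted p = 0.0260, background 31.8%), a call lost without 1 vehicle rat. Kit in ML-like cells of both SD sets did not pass with edgeR but went the same ways. With DESeq2 it passed, at -0.917 in sorted SD (adjusted p = 0.0717) and +0.995 in whole gland (adjusted p = 0.0295). In ACI ML-like cells it overlapped, at 1.84 to 8.99 CPM in vehicle and 2.09 to 3.88 in treated rats.

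In the whole gland Elf5 and both STAT5 genes were higher after treatment as well, whereas among these 3 only Stat5b was called lower in both sorted sets. The difference between preparations was not tested. In the whole gland, Elf5 rose from 127, 185 and 126 to 282, 321 and 458 (lowest, median, highest; +1.17 ± 0.21, edgeR, adjusted p = 3.55e-03). Stat5a rose from 12.3, 20.2 and 16.1 to 39.6, 51.4 and 74.3 (+1.65 ± 0.25, adjusted p = 1.76e-03) and Stat5b from 12.2, 15.5 and 8.06 to 25.4, 29.9 and 38.6 (+1.21 ± 0.21, adjusted p = 3.67e-03). None of these 3 genes had overlapping groups, as was so of 23.8% of all genes there (14.0% higher in treated rats, 9.84% lower), and each call held when any library was left out.

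In the sorted cells these genes were lower or did not pass. In ACI rats Elf5 was at 219, 195 and 208 in vehicle and 115, 146 and 140 in treated rats (-0.30 ± 0.11, edgeR, adjusted p = 0.0652), and Stat5b at 22.6, 16.2 and 26.3 against 13.3, 12.3 and 9.97 (-0.57 ± 0.17, adjusted p = 0.0244). Treated rats were below vehicle rats in both, as they were for 41.7% of all genes in CPM of these cells, so the separation says little of the members. The Elf5 call was lost with DESeq2 and without any 1 of 4 rats, and the Stat5b call without 1 of the vehicle rats. Stat5a was at 57.97, 47.2 and 65.8 against 40.6, 44.1 and 39.9, also without overlap, but did not pass (-0.14 ± 0.12, adjusted p = 0.433). The scaled values and the fit differ in size because the fit scaled libraries by TMM, and with library totals instead the median of all genes in ACI LP-like cells was -0.37 rather than -0.04. With library totals Stat5a passed (-0.47, edgeR, adjusted p = 0.0112).

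In sorted SD cells Stat5b fell from 14.4, 21.8 and 18.7 to 5.85, 10.2 and 12.4 (lowest, median, highest), without overlap (-0.58 ± 0.21, edgeR, adjusted p = 0.0780), a call lost with no filter (-0.58, adjusted p = 0.103) and without any 1 of the 3 vehicle rats or 1 treated rat. Treated rats were below all vehicle rats for 24.2% of all genes in CPM of these cells. Ehf was at 1153, 1068 and 1028 in vehicle and 278, 428 and 934 in treated rats. Those groups did not overlap either, but Ehf did not pass (-0.70 ± 0.35, adjusted p = 0.165), nor did Elf5 at 159, 194 and 201 against 42.3, 82.5 and 165 (-0.63 ± 0.32, adjusted p = 0.165). Both passed with library totals, Ehf at -1.04 (edgeR, adjusted p = 0.0472) and Elf5 at -0.935 (adjusted p = 0.0771), where the median of all genes was -0.27 rather than 0.06. The Elf5 groups overlapped. Stat5a overlapped too, at 36.4, 38.2 and 70.5 in vehicle and 27.8, 40.8 and 73.4 in treated rats (lowest, median, highest; 0.21 ± 0.27, edgeR, adjusted p = 0.613). Sox9 did not pass in LP-like cells of any preparation: its differences were 0.37 ± 0.20 in ACI, -0.09 in SD and -0.23 in whole gland. Ehf did not pass in any of the 3 under TMM scaling (0.11, -0.70 and -0.25).

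**Figure D2:**
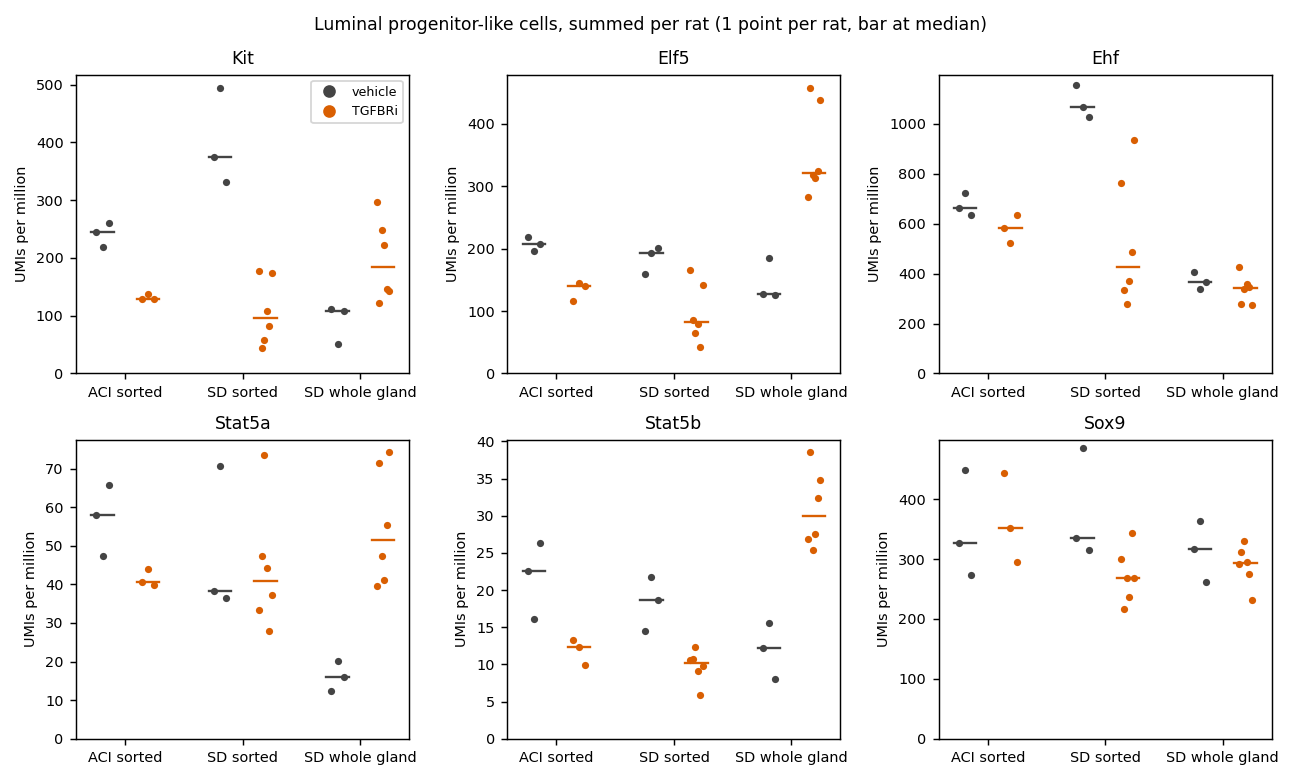
CPM of the 6 genes in LP-like cells of vehicle and TGFBRi-treated rats in 3 preparations (sorted ACI, sorted SD, SD whole gland), 1 point per rat with a bar at the median and the axis starting at 0. Kit and Stat5b points of treated rats sit below vehicle in both sorted sets and above it in the whole gland.

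The cells called LP-like differed in makeup between arms. In sorted SD cells, 84.9% of vehicle LP-like cells were in cluster 12 and 5.05% of those of treated rats were. Within that cluster, pooled Kit was 412 in vehicle and 275 in treated cells, in cluster 11 it was 218 and 164, and in cluster 18 it was 363 and 157, so Kit was lower in these 3 by smaller factors than in the class as a whole. A further 4 clusters (15, 16, 17 and 19) held 62.5% of treated and 1.5% of vehicle cells, with pooled treated Kit at 44.03 to 85.5, and 94.4 and 94.8% of the cells of clusters 17 and 19 came from 1 library each. In the whole gland, 69.6% of vehicle and 48.3% of treated LP-like cells were in cluster 6, where pooled Kit was 102.96 and 246, Elf5 145 and 320 and Stat5a 14.0 and 50.8. A further 22.5% of vehicle and 40.2% of treated LP-like cells were in cluster 25, at a median of 950 and 818.5 UMIs per cell, where pooled Kit was 40.9 and 70.95 and Elf5 278 and 506. Both genes were higher in treated cells of both clusters, and the part of the shift toward shallow cells in the class values was not tested.

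The preparations differed for other genes as well. Of 1906 genes called in LP-like cells of both sorted sets, 48.7% of the ACI and 50.4% of the SD calls, 30 went in opposite directions (1.57%). Of 1401 genes called in sorted ACI and whole gland, 906 were opposite (64.7%), and 583 of 1077 in sorted SD and whole gland (54.1%). The labels name different rats in the 3 sets, although some rat numbers recur in both SD sets. Whether any rat was shared between those sets is not stated. Sorted and whole-gland SD rats shared strain, age at dosing and day, and differed in sorting, in 3' against 5' chemistry, in Cell Ranger version and in the authors' cell filters (on Ptprc and keratin reads in sorted cells only), which cannot be told apart. ACI rats differed from the whole gland in strain and age as well. Milk genes took 3.74 to 5.15% of LP-like UMIs in treated ACI rats against 2.27 to 2.83% in vehicle, 3.28 to 7.97% against 1.49 to 2.12% in sorted SD and 2.55 to 12.2% against 2.24 to 6.60% in whole gland, and the part of this in the member values was not tested.

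Counts of pathway genes in LP-like cells stand beside shares of all genes called of 30.8% in sorted ACI, 28.6% in sorted SD and 28.6% in whole gland. Of 12 milk genes tested, 6 were higher and 0 lower in sorted ACI cells (median log2 difference 1.21 against -0.04 for all genes), 7 higher and 1 lower in sorted SD (1.97 against 0.06), and 3 higher and 0 lower in whole gland (1.495 against 0.04; edgeR). Milk protein genes (Csn3, Lalba, Csn1s1 and Csn2) were among the markers that named LP-like clusters, so milk gene counts and shares of this class are a description. In sorted SD, cluster 15, with 13 vehicle and 796 treated cells, was named on Csn3, Csn1s1 and Csn2 alone. Wap, a whey protein gene, rose by 2.38 ± 0.32 in ACI and 2.56 ± 0.33 in SD. Of 14 genes of the STAT5 pathway, 3 were higher and 4 lower in ACI, 1 higher and 3 lower in SD, and 3 higher and 2 lower in whole gland, the SD and whole-gland counts being at or near the share of all genes. Cish, a STAT5-induced feedback inhibitor, rose by 0.78 ± 0.13 in ACI cells, where Socs3 (-1.17 ± 0.14), an inhibitor of cytokine signalling, and Ghr (-0.80 ± 0.12), the growth hormone receptor, fell. Both were also lower in SD cells, Socs3 by -1.30 ± 0.46 and Ghr by -1.19 ± 0.42. In the whole gland Prlr, the prolactin receptor, rose by 0.64 ± 0.19 and Socs1 fell (-0.81 ± 0.22).

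Of 12 genes of the KIT pathway, 1 was higher and 4 lower in ACI LP-like cells, 0 higher and 2 lower in SD, and 2 higher and 4 lower in whole gland, so that the SD count was below the share of all genes. Pik3r1, a regulatory subunit of phosphoinositide 3-kinase that binds activated Kit, fell in ACI (-1.07 ± 0.12) and SD cells (-1.20 ± 0.20) and rose in whole gland (0.62 ± 0.15). Kitlg, the ligand, fell in ACI cells (-0.41 ± 0.14). Spry2, a feedback inhibitor, fell in ACI cells (-0.64 ± 0.17) and whole gland (-1.53 ± 0.27). Of the other LP genes, 7 of 14 were higher in ACI, 3 of 13 were higher and 1 lower in SD, and 2 of 14 were higher and 1 lower in whole gland, the latter being Aldh1a3 (-3.17 ± 0.33), a retinaldehyde dehydrogenase. The SD count was near the share of all genes and the whole-gland count below it.

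Outside LP-like cells the clearest member change in sorted ACI cells was Sox9 in the basal sort. It was at 163, 192 and 163 CPM in vehicle and 257, 269 and 272 in treated rats, with no overlap (+0.85 ± 0.10, edgeR, adjusted p = 2.03e-04, background 33%), and the basal-like cells within that sort gave calls for Sox9 and Stat5b in the same directions (0.87 and -0.69, background 33.4%). The ACI basal-like cells fell into clusters split by arm, of which 2 held 89.3% of treated and 1.5% of vehicle cells, and an unnamed cluster with 1755 treated and 116 vehicle basal-sort cells stayed outside the class. Pooled Sox9 was higher in treated cells in each of the 5 basal-like clusters. In whole-gland basal-like cells Sox9 was at 76.7, 79.6 and 160 in vehicle and 117 to 170 in treated rats, which overlapped (+0.50 ± 0.21, adjusted p = 0.0861, background 44.1%), and the call was lost with library totals (adjusted p = 0.119), on 6 libraries with or without the block (adjusted p = 0.112 and 0.121) and without any 1 of 5 libraries. Within clusters it went both ways, from 199 to 146 in cluster 16 and from 73.3 to 98.2 in cluster 21. In the SD basal sort no member passed (edgeR, background 24.7%). Stat5a in ACI ML-like cells was at 18.2, 15.9 and 15.6 in vehicle and 22.7, 20.7 and 15.5 in treated rats, which overlapped (+0.44 ± 0.15, adjusted p = 0.0722, background 21.9%), a call lost with DESeq2, with library totals (+0.24, adjusted p = 0.365) and without any 1 of 5 rats.

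Stat5b was lower in basal cells of the ACI sort and higher in those of the whole gland, a difference that was not tested. In the ACI basal sort it was at 11.6, 8.29 and 9.14 in vehicle and 5.24, 5.98 and 3.84 in treated rats (-0.73 ± 0.19, edgeR, adjusted p = 0.0132). In whole-gland basal-like cells it was at 4.41, 3.46 and 3.67 and at 5.39 to 10.3 (+1.13 ± 0.24, adjusted p = 3.29e-03). Neither pair of groups overlapped, and both calls held without any library. The share of all genes without overlap was not counted in basal cells. In the SD basal sort Stat5b was at 4.11, 5.15 and 7.78 in vehicle and 2.14, 3.27 and 4.04 in treated rats (lowest, median, highest), also without overlap, and did not pass (-0.45 ± 0.30, edgeR, adjusted p = 0.302) except with library totals (-0.83, adjusted p = 0.0725). With library totals the median of all genes was -0.32 rather than 0.07 there, and -0.25 rather than -0.03 in the ACI basal sort. Whole-gland basal-like cells of the arms lay in different clusters, cluster 16 with 10.0% of vehicle and 83.9% of treated cells and cluster 21 with 82.1 and 12.8%. Pooled Stat5b was 6.31 and 8.02 in cluster 16 and 3.68 and 14.0 in cluster 21, higher in treated cells of both. Elf5 in whole-gland basal-like cells was called (+1.07, adjusted p = 0.0356) at levels of 0.61 to 1.63 and 1.24 to 3.02, which lie within the range of B-like cells (0.59 to 7.02), and was lost on 6 libraries with or without the block (adjusted p = 0.204 and 0.121).

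In other whole-gland classes, Sox9 was lower in ML-like cells at 287, 253 and 178 in vehicle and 116 to 191 in treated rats (-0.74 ± 0.18, edgeR, adjusted p = 0.0145, background 29%), which overlapped at 1 vehicle rat. It was also lower in fibroblast-like cells (30.9, 19.4 and 25.3 against 9.78 to 22.2; -0.78, adjusted p = 0.0321, background 29.3%), where Stat5b was higher (7.00, 5.23 and 5.65 against 10.5 to 14.1; +0.89, adjusted p = 4.13e-03). The Sox9 call in fibroblast-like cells was lost with the number as a block on 6 libraries (-0.94, edgeR, adjusted p = 0.147). Stat5b therefore rose in LP-like, basal-like and fibroblast-like cells.

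Kit in endothelial-like cells was at 81.6, 121 and 22.3 in vehicle and 18.4 to 32.8 in treated rats, overlapping at 1 vehicle rat (-1.79 ± 0.43, edgeR, adjusted p = 0.0174, background 32.3%). Stat5a was lower there too (24.4, 28.8 and 43.2 against 20.3 to 30.4; -0.57, adjusted p = 0.0437), with groups that overlapped. That call was lost with library totals (-0.36, edgeR, adjusted p = 0.179), on 6 libraries with or without the number as a block (adjusted p = 0.196 and 0.195) and without either of 2 libraries, and the Kit call was lost on those 6 libraries without the block (-1.69, adjusted p = 0.1395). In mural-like cells Kit was at 43.9, 38.0 and 11.5 against 11.3 to 17.7 (-1.24, adjusted p = 0.0162, background 32.9%). The mural call was lost on 6 libraries with or without the block (adjusted p = 0.139 and 0.148) and turned to +0.88 (adjusted p = 0.0423) at a coarser clustering, in which a cluster with endothelial genes left the mural class. Ehf was called lower in T or NK-like cells (4.86, 8.54 and 3.77 against 1.64 to 4.43; -0.95, adjusted p = 0.0974, background 9.51%), a call that ended in 4 of 7 alternatives and in 7 of 9 fits leaving out a library. Across all classes, 14 of 60 member tests in the whole gland passed, 8 higher and 6 lower, and 11 of 59 in sorted cells, 3 higher and 8 lower (edgeR). Over all genes 25.1% of tests in the whole gland were called, and 21.9 to 33.4% of genes per class or sort in sorted cells, so the members were not called more often than other genes by edgeR. With DESeq2 the numbers were 19 and 12, against 29.1% and 32.5% of the tests of all genes.

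In bulk fractions 4 of 192 member tests of treatment passed (limma, against 0.588% of the tests of all genes in the same 32 comparisons), with 24 of them below 0.05 before adjustment, 4 by edgeR and 9 by DESeq2. The adult virgin basal fraction gave 2 of them. Stat5b was at 84.3, 67.7, 81.3 and 81.3 CPM in vehicle and 25.4, 39.8, 11.1 and 20.6 in treated rats. All treated rats were below all vehicle rats (-1.82 ± 0.29, limma, adjusted p = 2.07e-03, background 8.73% of all genes, median of all genes -0.25). Stat5a was at 59.2, 28.1, 33.6 and 34.8 and at 19.7, 9.04, 15.8 and 21.0, also without overlap (-1.24 ± 0.30, adjusted p = 0.0201). That call was lost when only the groups compared were fitted and without vehicle rat 1, the library with luminal keratin, whereas the Stat5b call held in all 8 alternatives and when any rat was left out.

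Kit in the same fraction was at 74.8, 4.48, 13.6 and 14.5 in vehicle rats and from 0 to 4.39 in treated rats, below every vehicle rat, and missed the threshold (-3.77 ± 1.27, limma, adjusted p = 0.0737). It passed under TMM scaling (-2.50, limma, adjusted p = 0.0428), with DESeq2 (-3.41, adjusted p = 0.00528) and with the ribosomal share as a covariate (-4.50, limma, adjusted p = 0.0480), and Ehf passed with DESeq2 (-2.99, adjusted p = 0.0422). The treated libraries had 10151 to 11434 genes with a read against 12123 to 12561 in vehicle, and Krt5 at 448 to 1439 CPM against 715 to 2568, and the part of these in the result was not tested. Of 14 STAT5 pathway genes in this comparison, 2 were higher (Socs1, 1.23 ± 0.26; Bcl6, 1.43 ± 0.34, limma) and 0 lower, beside 8.73% of all genes called. Of 11 KIT pathway genes, 1 was lower: Dusp6 (-1.03 ± 0.30), a phosphatase of the ERK cascade. Neither count is far from that share.

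Parous rats did not share the Stat5b difference. Their treated basal libraries had Stat5b at 66.9, 49.1, 86.7 and 87.5 CPM against 83.1, 64.5, 53.7 and 82.4 in vehicle, which overlapped. The parous minus virgin difference of the treatment effect was 1.80 ± 0.41 (limma, adjusted p = 0.0474, background 1.04%), and it was called in 2 of 6 alternatives and in 3 of 16 fits leaving out a rat. Among treated rats, parous basal libraries were above virgin ones (+1.61 ± 0.29, adjusted p = 2.87e-03, background 12.1%), a call that held in all alternatives. Among vehicle rats no member passed a parity test, beside 0.0% of all genes in the basal, luminal and CD45+ fractions. In the adult luminal fraction no member passed a treatment test (background 0.0% of all genes in virgin and 0.0281% in parous rats).

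**Figure D3:**
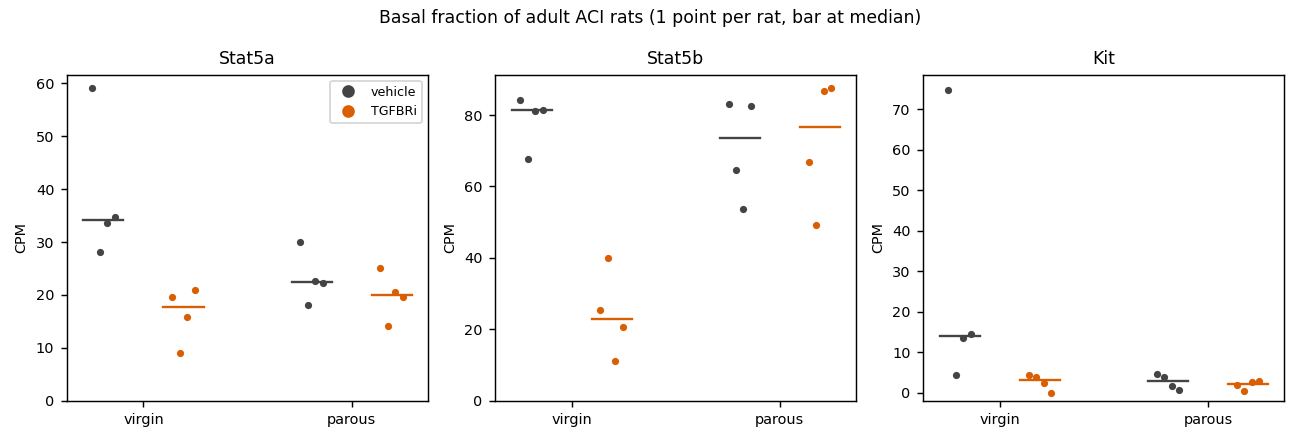
CPM of Kit, Stat5a and Stat5b in the basal fraction of adult ACI rats by parity and treatment, 1 point per rat with a bar at the median. Virgin TGFBRi-treated rats sit at 11.1 to 39.8 CPM of Stat5b, below the virgin vehicle rats at 67.7 to 84.3, and the parous groups overlap.

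The other bulk treatment calls were Kit in the luminal fraction of NMU rats. Vehicle rats were at 6.04, 6.21 and 32.6 CPM, tumor-free treated rats at 57.6, 83.96 and 98.1 and tumor-bearing treated rats at 110, 46.98 and 214. Neither treated group overlapped the vehicle rats, which serve as controls for both. The differences were +2.49 ± 0.53 (limma, adjusted p = 0.0350, background 0.948%) and +2.66 ± 0.53 (adjusted p = 0.0385, background 0.212%). Reads in ribosomal protein genes made up 20.6, 12.99 and 4.62% of the vehicle libraries and 3.23 to 7.35% of the treated ones. Both calls were lost with that share as a covariate (limma, +0.86 and +1.38, adjusted p = 0.9997 and 0.370). Without the 2 vehicle libraries over 8%, only the vehicle library at 4.62% remained, and the differences were +1.34 and +1.52. That fit cannot decide the calls, because the vehicle group then has no spread of its own. Under TMM scaling both calls were lost at about the same size (limma, +2.46 and +2.65, adjusted p = 0.0606 and 0.0701). The call in tumor-bearing rats was also lost with no filter (limma, adjusted p = 0.0533) and with only the groups compared (adjusted p = 0.113). The calls held in 1 and 2 of 6 fits leaving out a rat. Stat5b was also higher in tumor-bearing treated rats, at 80.7 to 125 CPM against 13.4 to 61.4 CPM, without overlap but short of the threshold (1.57 ± 0.45, adjusted p = 0.0992), and passed with DESeq2 (1.39, adjusted p = 0.0465).

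The ribosomal protein share moved with several members over all 68 luminal bulk libraries, which share fractions, experiments and depths. Pearson's r with log2 CPM was -0.67 for Kit, -0.72 for Ehf, -0.89 for Sox9, -0.53 for Stat5a, -0.68 for Stat5b and 0.14 for Elf5. Within groups it was -0.88 for Kit and -0.10 for Elf5. Kit was at 5.27 to 11.7 CPM in the 6 libraries over 8% and at 6.95 to 323 in the other 62. Its part in the Kit differences was not tested beyond the fits with the share as a covariate and without the libraries over 8%.

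**Figure D4:**
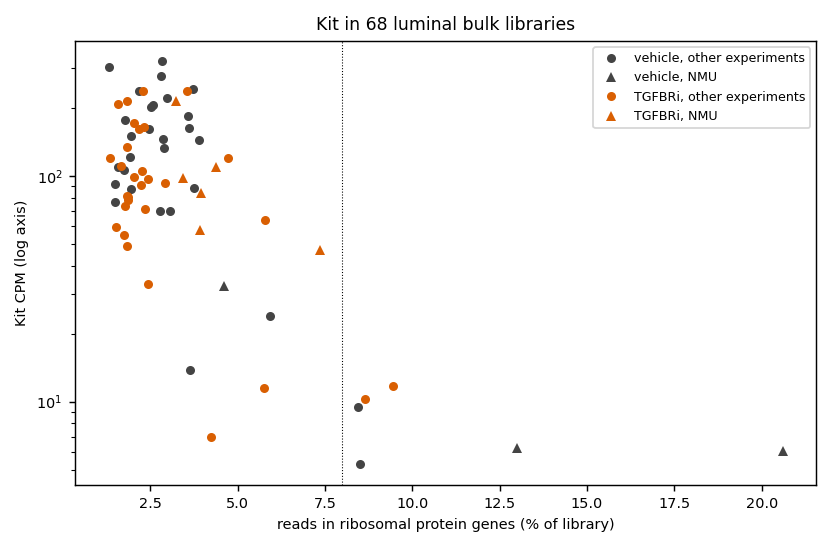
Kit CPM on a log axis against the share of reads in ribosomal protein genes, in percent, for 68 luminal bulk libraries, colored by treatment with triangles for NMU rats and a dotted line at 8%. The 6 libraries right of the line lie at 5.27 to 11.7 CPM.

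In young ACI rats at D0, luminal Kit was at 277, 220 and 185 CPM in vehicle and 73.5, 54.7 and 120 in treated rats, without overlap, but did not pass (-1.57 ± 0.99, limma, adjusted p = 0.427, background 1.01%). It passed when only the groups compared were fitted (-1.57, limma, adjusted p = 6.81e-03) and with the ribosomal share as a covariate (-3.21, limma, adjusted p = 1.44e-03). That share was 2.80 to 3.58% in vehicle and 1.35 to 1.78% in treated libraries at D0, so share and treatment cannot be told apart there. Kit at day 7 was at 133, 69.7 and 5.27 CPM against 11.5, 237 and 165, and at day 14 at 237, 323 and 207 against 208, 71.2 and 10.3, which overlapped. The day 7 vehicle value of 5.27 came from the rat whose labels disagreed on treatment, in a library with 8.50% ribosomal protein reads, and the day 14 treated value of 10.3 from a library with 8.66%. In young SD rats no member passed a treatment test in any fraction (limma, background 0.0%). Luminal Kit was there at 120, 237, 11.7 and 63.7 CPM in treated rats against 24.0, 88.2, 9.43 and 144 in vehicle, which overlapped. The libraries at 11.7 and 9.43 CPM had 9.45 and 8.45% ribosomal protein reads. The Kit difference of +0.60 ± 0.80 (limma) did not pass and was smaller than its SE, so it sets no direction. LP-like cells of the sorted SD set, a part of the luminal sort, had a fall, and the difference from bulk was not tested. The labels mark 2 of the 4 treated SD rats as weak and 2 as strong responders, and they were kept as 1 group here. Across days 0, 7 and 14 of vehicle rats, 0 of 24 member tests passed (limma, against 0.323% of the tests of all genes), with 2 below 0.05 before adjustment and 0 calls by edgeR or DESeq2.

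Estradiol raised Elf5 in luminal cells of TGFBRi-treated tumor-free rats. Without E2 it was at 8.50, 2.10 and 7.47 CPM and with E2 at 30.6, 31.7, 21.3 and 44.4, with no overlap (+2.65 ± 0.48, limma, adjusted p = 4.40e-03, background 4.58%). The call held under all alternatives and without any rat. In vehicle rats Elf5 was at 7.63, 12.1, 10.4 and 23.5 without and 22.03, 32.5, 18.8 and 26.1 with E2, which overlapped (+1.08 ± 0.45, adjusted p = 0.257, background 1.48%). The difference between the effects was 1.57 ± 0.66 and did not pass (adjusted p = 1.0, unadjusted p = 0.028, background 0.0%). Tumor-bearing treated rats with E2 had 52.2 and 30.95 CPM. Milk genes rose in the same comparison, 9 of 11 in treated rats (median 3.14, against -0.04 for all genes) and 3 of 11 in vehicle rats (2.01, against 0.0). Mature luminal genes fell in both, 5 of 12 in treated (median -1.95) and 5 of 12 in vehicle rats (-2.03), among them Cited1 (-4.81 ± 1.17 and -6.27 ± 1.09), Wnt4 (-2.46 ± 0.58 and -2.78 ± 0.53) and Prlr (-2.52 ± 0.42 and -1.78 ± 0.39), and the part of these in the Elf5 result was not tested.

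In CD45+ cells, Kit rose with E2 in treated tumor-free rats, from 11.6, 12.4 and 10.4 to 83.5, 32.2, 55.1 and 83.8 CPM, without overlap (+2.47 ± 0.53, limma, adjusted p = 0.01495, background 5.58%). The call was lost without any 1 of the 3 rats without E2. In vehicle rats it was at 22.5, 14.7, 10.4 and 59.7 without and 72.7, 74.5, 63.4 and 21.2 with E2, which overlapped (+1.32, adjusted p = 0.276). Tumor-bearing treated rats with E2 had 25.9 and 25.8. The summed level of 11 mast cell genes was 9.68 to 40.3 CPM without and 7.85 to 64.8 with E2 in treated rats, and 0 of the mast cell genes passed. The summed level of LP genes in the same libraries was 250 to 406 CPM without and 538 to 909 with E2, and its part in the Kit result was not tested.

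Sox9 in CD45+ cells of vehicle rats fell with E2, from 29.5, 16.6, 24.0 and 46.01 to 2.99, 4.09, 6.95 and 3.34 CPM, without overlap (-2.67 ± 0.42, limma, adjusted p = 0.0163, background 0.282%), a call lost with edgeR and without either of 2 rats. In treated rats it was at 12.99, 16.2 and 29.7 and at 6.97, 5.39, 16.7 and 5.28 (-1.13, adjusted p = 0.148). The luminal keratins moved with Sox9 in vehicle rats, Krt8 being at 114 to 135 CPM without and 7.82 to 30.7 with E2 and Krt18 at 52.9 to 78.9 and 3.15 to 18.3, and their part in the result was not tested.

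**Figure D5:**
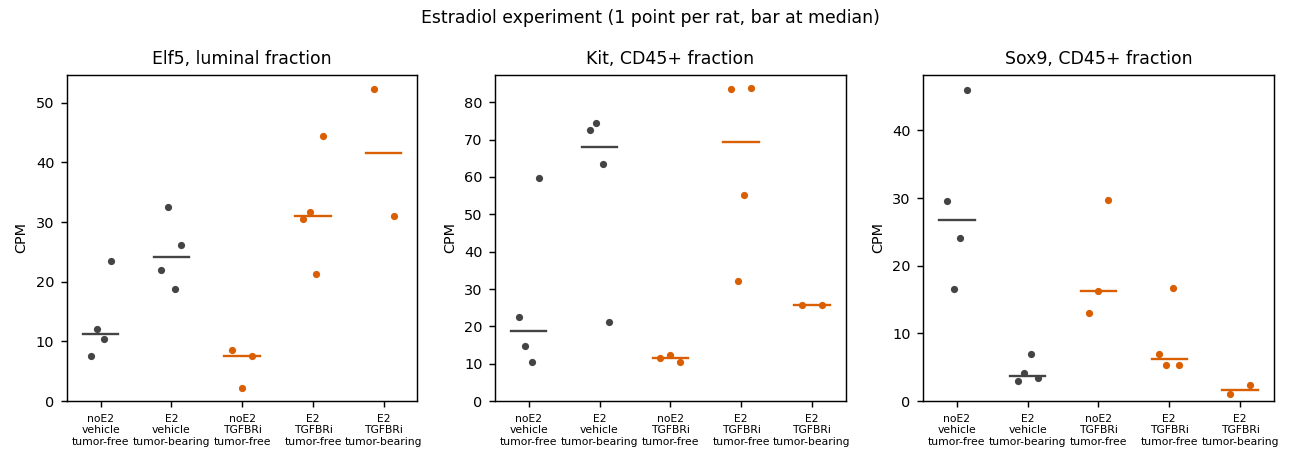
CPM of Elf5 in the luminal and of Kit and Sox9 in the CD45+ fraction of the estradiol experiment, by implant, treatment and tumor state, 1 point per rat with a bar at the median and the axis starting at 0. Elf5 points of treated rats with E2 lie above the 3 treated rats without it.

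Between NMU tumors and gland 3 of 6 members passed, beside 39.6% of all genes, so the count is near that share. Tumor and gland cells were also sorted on different markers. In EPCAM+ tumor cells of vehicle rats Elf5 was at 2.48, 6.37 and 5.82 CPM against 28.8, 17.8 and 14.7 in luminal gland (-1.88 ± 0.58, limma, adjusted p = 0.0147, lost without either of 2 rats, background 39.6% of all genes, median of all genes +0.78). Stat5a was at 73.2, 85.5 and 93.7 against 25.8, 5.27 and 40.6 (+2.15 ± 0.54, adjusted p = 4.33e-03). Stat5b was at 64.5, 67.1 and 64.4 against 13.5, 13.4 and 61.4 (+1.496 ± 0.49, adjusted p = 0.0199, lost without any 1 of 3 rats). None of the 3 genes overlapped between tissues. They are given because they were called, and the share of all genes without overlap was not counted. All 3 calls were lost with the ribosomal share as covariate, where Stat5a was at +1.78, Elf5 at -0.154 and Stat5b at +0.069 (limma). Without the 2 vehicle gland libraries over 8%, only the gland library at 4.62% remained. Elf5 was then at -1.49, Stat5a at +1.03 and Stat5b at +0.089. That fit cannot decide the calls, because the gland group then has no spread of its own. Under TMM scaling, edgeR and DESeq2 the Stat5 calls were lost and Ehf and Sox9 were called lower.

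Across the 59 bulk groups the genes whose group means were most like each member's were, by Pearson's r over 8850 genes, Csn1s2b (0.97), Gng7 (0.95) and Sectm1a (0.945) for Elf5, and Vtcn1 (0.98), Pkp2 (0.97) and Tmprss2 (0.96) for Ehf. Fam43a (0.88), Ocln (0.88) and Ceacam1 (0.87) were nearest to Kit, and Ano1 (0.96) to Sox9. Stat5b was the nearest gene to Stat5a (0.83) and Tecpr1 (0.86) to Stat5b, and Elf5 and Ehf were at 0.92 with each other. Groups share fractions and experiments, so these values describe the tables.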

How the data were processed

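RNA-seq libraries of sorted mammary fractions (202 samples) and single-cell libraries (39 samples) were used, grouped by the labels. The authors aligned bulk reads with STAR 2.5.1b to rn6, counted them per gene with HTSeq without strand and deposited normalized counts (signal values, size factors of DESeq2 1.30.1). The authors deposited raw UMI counts from Cell Ranger 4.0.0 (sorted cells, 3' chemistry) and Cell Ranger 7.0.0 (whole gland, 5' chemistry). In the bulk tables, all 2526550 values above 0 of 202 files came out as whole reads (tolerance 0.001), giving 4194912 to 52314784 reads per file, and up to 117126747 per rat where files of one rat were summed. Rows of no gene (23.1 to 42.5% of the reads of 85 files) were kept out.

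Bulk treatment, time, parity, E2 and lineage in young and NMU rats were tested with limma 3.58.1 (trend, robust) on log2(normalized count + 1), genes summing to at least 10, with adjusted p at most 0.05. Adult lineage and tumor against gland were tested on log2(CPM + 1). Single cells were clustered without the 6 genes (scanpy 1.11.5, Leiden resolution 0.8, 0.4 as the alternative), named from markers, and summed per rat and class (at least 10 cells). These sums were tested with edgeR 4.0.16 (quasi-likelihood, TMM, genes with at least 10 counts, adjusted p at most 0.1). Adjusted p-values are Benjamini-Hochberg over all genes tested. Cells carry the authors' filters, and doublet calls (Scrublet) marked 1.60%, 2.07% and 0.511% of the cells of the 3 sets, which were kept. Replicates are separate rats. Basal and luminal samples of 1 rat are paired by the labels, with a correlation within rats of 0.519 in young ACI, 0.093 in young SD, 0.164 in NMU and 0.215 in adult rats (limma). The genes and lists were chosen with earlier results of these data known. Genes outside the 6 are named where a fixed list was counted or where they were most like a member. Alternatives were TMM scaling, edgeR and DESeq2 1.42.0 on recovered reads, a pseudocount of 5, no filter, only the groups compared, replicate blocks and leaving out each rat. Ribosomal read share as a covariate, leaving out libraries over 8%, library totals and the 6 libraries without a block were added after seeing the data. The tests were tried on simulated data. The number of rats limits the precision.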

Additional observations from a re-analysis of the deposited data

Results flagged for a closer look

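In groups of 4 to 10 rats, 1 rat stood apart from the rest in 13 of 222 sets of values (1 gene in 1 group), where chance flags about 1 in 20. The ratio of the gap to the whole range was taken on log2(normalized count + 1) in bulk and log2(CPM + 1) in single cells. It follows each value in CPM, which for single cells counts UMIs. Rats were flagged on the log2 scale, so in bulk the spacing of the CPM values can be smaller than the ratio beside them. Kit in adult virgin basal TGFBRi-treated rat 4 was at 0 against 2.30 to 4.39 (0.896), in E2 luminal tumor-free treated rat 2 at 48.95 against 78.5 to 81.8 (0.848), and in basal-like cells of whole-gland treated rat 11 at 0.345 against 1.04 to 1.57 (0.642). Elf5 in adult virgin basal vehicle rat 1 was at 3.43 against 0.656 to 0.907 (0.835), in a library that also carried luminal keratin. Ehf in adult virgin CD45+ vehicle rat 1 was at 143 against 22.01 to 23.6 (0.896).

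Sox9 stood apart in adult parous luminal treated rat 3, at 975 against 1230 to 1512 (0.949), and in young SD CD45+ treated rat 3, at 22.5 against 81.3 to 90.9 (0.937). Stat5a stood apart in adult virgin CD45+ vehicle rat 2, at 44.9 against 52.9 to 60.8 (0.875), in adult virgin basal treated rat 2, at 9.04 against 15.8 to 20.9 (0.919), and in adult virgin luminal vehicle rat 3, at 40.9 against 57.7 to 66.2 (0.928). Stat5b stood apart in adult parous CD45+ treated rat 2, at 139 against 82.1 to 94.3 (0.832), in adult virgin CD45+ vehicle rat 2, at 113 against 50.7 to 59.1 (0.958), and in adult parous luminal treated rat 4, at 169 against 67.9 to 95.1 (0.834).

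The effect of TGFBRi on basal Stat5b differed between parous and virgin adult rats by 1.80 on the log2 scale, by the test of the difference itself (limma, adjusted p = 0.0474), a call that held in 2 of 6 alternatives and in 3 of 16 fits leaving out a rat. For some members in LP-like cells, every treated rat lay on one side of vehicle in a sorted set and on the other side in the whole gland, as was so of 8.93% of all genes for sorted ACI and 4.75% for sorted SD. Against sorted ACI, the gap in log2 difference was 1.58 for Kit (-0.55 and 1.03), 1.47 for Elf5 (-0.30 and 1.17), 1.78 for Stat5a (-0.14 and 1.65) and 1.78 for Stat5b (-0.57 and 1.21). Against sorted SD it was 2.59 for Kit (-1.56 and 1.03) and 1.79 for Stat5b (-0.58 and 1.21). The difference between preparations was not tested, and sort and chemistry differ with it, as does strain for ACI.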

How the results depend on the processing

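The alternatives that moved a count of member calls by over 1.5 times were the following, each beside its count as reported. Treatment calls in bulk went from 4 to 9 with DESeq2 and to 8 with the ribosomal share as a covariate. Without libraries over 8%, NMU vehicle luminal cells kept only the library at 4.62%, so counts of calls that use it are left out. Sorted single-cell treatment calls went from 11 to 21 with library totals, and whole-gland calls from 14 to 9 with the number as a replicate block on 6 libraries, where the same 6 libraries without the block gave 8. The difference of treatment effect went from 1 to 0 with TMM, edgeR and a pseudocount of 5. The time comparison went from 0 to 3 and tumor against gland from 3 to 0 with the ribosomal share. Leaving out 1 rat gave 2 to 7 calls for bulk treatment, 0 to 1 for the difference, 2 to 4 for E2, 11 to 12 for lineage in young and NMU rats, 7 for adult lineage, 11 to 12 for single-cell lineage, 1 for parity, 0 for time, 8 to 16 for sorted cells, 11 to 18 for whole gland and 1 to 4 for tumor against gland. Reversed calls were Sox9 in whole-gland B-like cells without vehicle rat 2 (1.52, where leaving out 1 rat ranged from -0.614 to 1.52) and Kit in mural-like cells at Leiden resolution 0.4 (0.88).

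Over all genes, counts of calls by setting were as follows. Each count sums only the comparisons a setting was fitted to. Where these were fewer, the count is no measure of a move. Bulk treatment gave 2626 in 32 comparisons, with 9425 by DESeq2. It gave 9424 in 20 comparisons with the ribosomal share and 1202 in the 6 adult comparisons with the label as replicate block. Without the rat with disagreeing labels it gave 0 in 3 comparisons. Time gave 199 in 4 comparisons, with 2518 by DESeq2, 4462 with the ribosomal share and 877 with only the groups compared. In 2 comparisons each, time gave 93 without libraries over 8% and 34 without that rat. Parity gave 1631, with 399 for only the groups compared, and E2 gave 1614, with 3559 by DESeq2. The ribosomal share was fitted only to the 2 luminal E2 comparisons and gave 757 there, where the main fit gave 623 and 201. The difference gave 142 in 7 comparisons, with 1024 by DESeq2 and 3574 with the ribosomal share. Only the groups compared gave 2 in 5 comparisons, which leave out adult basal cells with 140 of the 142. In fewer comparisons, the difference gave 9 without libraries over 8% and 0 without that rat, where the main fit also gave 0. Lineage in young and NMU rats gave 13116. Adult lineage gave 10357, with 5777 with the ribosomal share, and tumor against gland 5204, with 3177 by edgeR and 355 with the ribosomal share. Counts without libraries over 8% are left out for lineage, tumor against gland and bulk treatment. NMU vehicle luminal cells kept only the library at 4.62% there. Sorted cells gave 39918, with 23956 over the fewer classes at Leiden resolution 0.4. The whole-gland number block gave 15257 calls, and 17807 without the block, against 34334. The share of higher calls was 81.7% for the difference (51.9% with TMM), 32.8% for adult lineage (49.3% with TMM), 87.4% for tumor against gland (60% with TMM), 48.3% for bulk treatment (64.5% with TMM), 50.6% for sorted cells (14.6% with library totals) and 46.7% for whole gland (62.6% with library totals).

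The rat is shared between fractions, and the rat as replicate block gave 12, 7, 12 and 3 calls for the lineage and tumor comparisons, none moved. Adult label numbers and whole-gland numbers do not pair rats by the labels (within-pair correlations of LP-like cells 0.363, -0.351 and -0.089). The label block left 4 bulk treatment and 1 parity calls. Without the rat with disagreeing labels, all 42 member tests it touched kept their side of the threshold. Direction was not compared where neither fit passed. Depth limits Kit and Elf5 in basal cells of the single-cell sets, where UMI counts are near 0.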
